A study of Mus musculus with 12 samples.

Results

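Pparg and 9 genes that take fatty acids into liver cells, carry them there or turn them into stored fat were followed in mouse liver across 4 groups. The genes were given by name, and earlier results of these data were known when they were chosen. They are Pparg, Cd36, Vldlr, Lpl, Slc27a2, Slc27a4, Fabp1, Fabp2, Mogat1 and Dgat2. They are 10 of the 55291 genes counted, and all 10 passed the filter on low counts that left 18305 genes for testing. In mm10 coordinates of the deposited table, Pparg spans chr6:115360951-115490399, Cd36 chr5:17781690-17888801, Vldlr chr19:27216484-27254231, Lpl chr8:68880491-68907448 and Slc27a2 chr2:126552407-126588243. Slc27a4 spans chr2:29802634-29817522, Fabp1 chr6:71199827-71205023, Fabp2 chr3:122895072-122899506, Mogat1 chr1:78510991-78538173 and Dgat2 chr7:99153658-99182719.

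PPARG is a nuclear receptor that binds fatty acids and their derivatives, pairs with a retinoid X receptor (RXR) and switches on genes of fat storage. It is best known from adipocytes, and its level in healthy liver is low, while fatty livers of mice often make more of it. CD36 is a membrane protein that takes up long-chain fatty acids, and it is also carried by macrophages and endothelial cells. Fatty acids inside the cell are held by fatty acid binding proteins, activated to acyl-CoA, and joined to glycerol by acyltransferases to give triglyceride.

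Liver RNA was sequenced from male C57BL/6 mice that were 6 weeks old when they entered the study. The NC group ate a normal diet, and all other mice ate the high-fat diet D12492 for 8 weeks and were then divided into HFD, HFD+AE and HFD+RE. The 2 exercise groups trained for at least 12 weeks; AE and RE are given by the labels as abbreviations only, and usually stand for aerobic and resistance exercise. Each group had 3 libraries, numbered 2, 4 and 5 in NC, 1 to 3 in HFD and HFD+AE, and 3 to 5 in HFD+RE. The labels do not state whether libraries within a group are different mice. A p-value here therefore reflects how these samples vary, and that variation may be technical.

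The libraries held 44373214 to 77665729 counts in genes. Albumin (Alb), the main protein hepatocytes secrete, had the largest count in each of the 12. On the first principal component of log2 CPM (the counts of a gene scaled to a common library size), with 40.6% of the variance, HFD+AE 3 lay at 14, while HFD+AE 1 and 2 lay at -40.4 and -36.9. HFD+RE 3 lay at -36.6, while HFD+RE 4 and 5 lay at 50.4 and 52.6. NC 2, 4 and 5 lay at -61.1, -72.7 and -40.2. HFD 1, 2 and 3 lay at 67.4, 23 and 80.8, so HFD 2 was also away from the rest of its group. HFD+AE 3 and HFD+RE 3 thus stood apart from their exercise groups. Log2 changes in the exercise groups are also given without HFD+AE 3 and HFD+RE 3 for the genes whose values are described at length. HFD 2 was kept in those fits. HFD+AE 3 and HFD+RE 3 were picked from these same values, and leaving them out narrows the spread within their groups. Calls and p-values without them are therefore descriptions. Mitochondrial ribosomal RNA took 1.76% to 3.26% of counts in HFD, 0.708% to 0.924% in NC, 0.771% to 0.867% in HFD+AE and 0.685% to 1.71% in HFD+RE; its part in the diet results was not tested. These are bulk samples, in which fewer cells of a type and less RNA per cell cannot be told apart.

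The promoters of 5 of the genes are shown because they hold the letters closest to the element that PPAR and RXR bind among the genes with a promoter entry. Cd36, Mogat1 and Fabp2 rose on the high-fat diet, and Fabp1 and Slc27a2 did not pass the test. RefSeq promoters (GRCm38.p6) matched 8 of the 10 genes, and Lpl and Dgat2 had no entry. The motif, 2 copies of AGGTCA with 1 base of any kind (N) between them, was searched on both strands of the 250 bases before each start, and its best match is in capitals. The stretches run 5′ to 3′ on the strand of the gene. They are chr5:17835897-17836146 on the minus strand for Cd36, chr6:71199629-71199826 on the plus strand for Fabp1 and chr3:122894822-122895071 on the plus strand for Fabp2. For Mogat1 and Slc27a2, whose matches lie in an annotated exon, only the match with 8 bases on each side is shown (chr1:78511001-78511029 and chr2:126552789-126552817, both on the plus strand).
Fabp1: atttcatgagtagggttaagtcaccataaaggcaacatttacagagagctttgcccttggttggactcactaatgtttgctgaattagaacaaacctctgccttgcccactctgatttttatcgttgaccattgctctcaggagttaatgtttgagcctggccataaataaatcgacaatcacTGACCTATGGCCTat
Cd36: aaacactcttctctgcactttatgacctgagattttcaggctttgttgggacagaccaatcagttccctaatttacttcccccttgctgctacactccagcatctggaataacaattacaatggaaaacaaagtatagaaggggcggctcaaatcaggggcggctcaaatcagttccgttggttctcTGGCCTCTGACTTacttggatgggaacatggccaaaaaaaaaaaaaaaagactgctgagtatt
Mogat1: cagaattcAGGTAAAAAGTCAggctggtg
Slc27a2: acagcaccACGCCTTTGACCTtttcaacg
Fabp2: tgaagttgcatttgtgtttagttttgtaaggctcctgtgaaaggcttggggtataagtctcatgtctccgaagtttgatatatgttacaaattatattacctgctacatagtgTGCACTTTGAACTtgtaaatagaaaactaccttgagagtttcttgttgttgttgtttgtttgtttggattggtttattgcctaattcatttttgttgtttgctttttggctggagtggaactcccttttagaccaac

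The Fabp1 match differs from the motif at 1 base, those of Cd36 and Mogat1 at 2 and those of Fabp2 and Slc27a2 at 3. Of 32841 RefSeq windows of the same length, 0.484% held a match with at most 1 difference, 3.24% with at most 2 and 21.3% with at most 3. The best match differed at 4 bases in each of the 3 Pparg starts, at 4 and 5 in the 2 Vldlr starts and at 5 in Slc27a4. At most 4 differences were found in 74.5% of all windows, so the matches of Pparg, Vldlr and Slc27a4 are as close as those of most promoters. A match is a description of the letters and not a site of binding. The Cd36 window lies before a start inside the span over which the gene was counted.

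Levels between the genes are compared as CPM per kilobase of exon. In NC liver the mean was 4539 CPM per kilobase for Fabp1, 393 for Slc27a2 and 156 for Dgat2. Fabp2 stood at 46.9, Cd36 at 13.9 and Slc27a4 at 8.20 CPM per kilobase, and Pparg at 2.46, Lpl at 1.43, Mogat1 at 0.250 and Vldlr at 0.223. Mogat1 and Vldlr in NC did not differ beyond the spread of their libraries. The genes that rose on the high-fat diet were thus not the most abundant ones. In HFD the order of the first 7 was the same, and Mogat1 with 3.24 CPM per kilobase then stood above Lpl with 1.37 and Vldlr with 1.0.

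The comparison of HFD with NC asks what the high-fat diet does to the liver. In edgeR's quasi-likelihood test, 5 of the 10 genes rose at a Benjamini-Hochberg adjusted p below 0.05, namely Mogat1, Vldlr, Fabp2, Cd36 and Pparg, none fell and 5 did not pass; DESeq2 also called 5, with 20.4% of all genes it tested. Of all 18305 genes tested, 15.6% were called, 8.38% as higher and 7.19% as lower. The groups did not overlap for 6 of the 10 genes, all higher in HFD, against 46% of all genes (23.9% higher and 22.1% lower). The median log2 change of the 10 genes was 0.65, and that of all genes was 0.01.

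**Figure D1:**
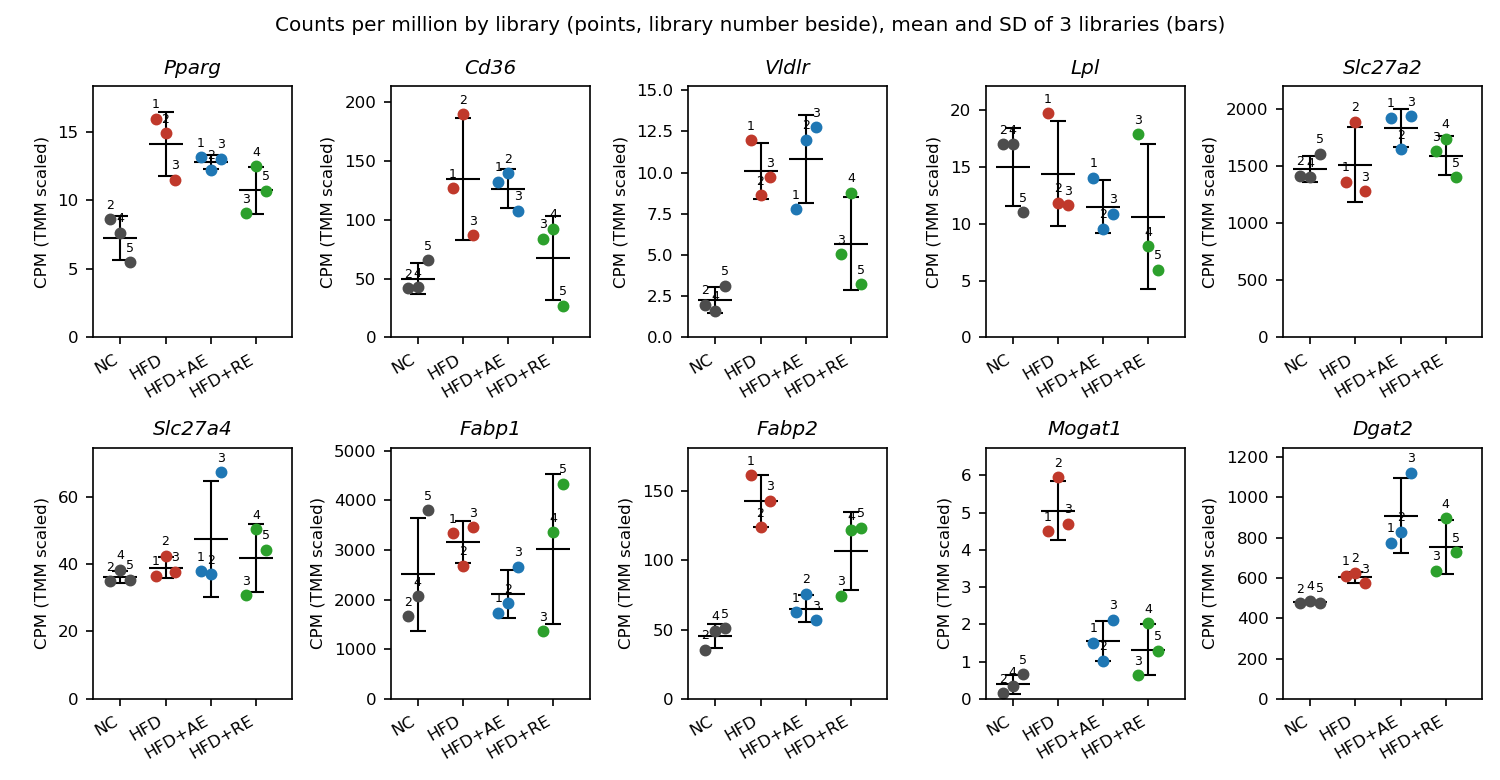
CPM of the 10 genes in each of the 12 libraries (points, with the library number above each), with the mean and SD of each group of 3 (horizontal line and bars); each panel has its own axis from 0. The HFD libraries lie above the NC libraries for Pparg, Cd36, Vldlr, Fabp2, Mogat1 and Dgat2, and for Mogat1 the 3 HFD libraries (4.50 to 5.96 CPM) lie above all 9 others (at most 2.12 CPM).

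Pparg, the receptor, was at 8.63, 7.63 and 5.49 CPM in NC 2, 4 and 5 and at 15.9, 14.9 and 11.5 CPM in HFD 1, 2 and 3. Each HFD library was above each NC library. The mean went from 7.25 ± 1.60 to 14.1 ± 2.33 CPM (SD, n = 3 each), a log2 change of 0.96 (SE 0.21, edgeR adjusted p = 0.0141). The call was lost without NC 4 (adjusted p = 0.0506) or HFD 1 (0.0683), and over 19 alternatives the adjusted p ran from 0.00107 to 0.0844.

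Cd36, the uptake protein, was at 41.9, 42.7 and 65.5 CPM in NC 2, 4 and 5 and at 127, 190 and 86.9 CPM in HFD 1, 2 and 3. The groups did not overlap, but the 3 HFD libraries lay far apart, with HFD 2 the highest of all 12 libraries. The mean went from 50.0 ± 13.4 to 135 ± 51.9 CPM (SD, n = 3 each), a log2 change of 1.43 (SE 0.40, edgeR adjusted p = 0.0321). Of 5 single libraries in these groups (NC 2, NC 4, HFD 1, HFD 2 and HFD 3), leaving out any one ended the call, with adjusted p from 0.0575 to 0.114, and so did testing without the filter on low counts (0.0888); over all 19 alternatives it ran from 0.00423 to 0.195.

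Genes that mark other liver cells also differed between the diets, and macrophages and endothelial cells also carry CD36. The summed level of 13 Kupffer cell and macrophage genes was 358 to 578 CPM in NC and 185 to 372 CPM in HFD, with HFD 2 above NC 5, and 1 of the 13 fell. For 9 genes of lipid-associated and recruited macrophages the sum was 41.8 to 53.4 CPM in NC and 44.2 to 82.2 CPM in HFD; 2 rose, Ccr2 by 1.82 and Ly6c2 by 2.83 on the log2 scale (edgeR adjusted p = 0.0211 and 0.018), and 1 fell. Macrophage lists thus did not move one way.

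Of 12 sinusoidal endothelial genes 5 fell, and their sum was 334 to 420 CPM in NC and 126 to 234 CPM in HFD. Of 11 stellate cell and fibroblast genes 7 rose (155 to 174 CPM in NC and 296 to 406 CPM in HFD), and of 13 lymphocyte genes 6 rose (17.1 to 32.3 CPM in NC and 27.5 to 79.4 CPM in HFD). Of 9 hepatocyte genes 4 fell, with sums, most of them Alb, of 115600 to 128900 CPM in NC and 59010 to 86430 CPM in HFD. The 5 that did not pass went both ways. Their log2 changes were 0.86 for Ttc36, 0.61 for Asgr1, 0.55 for Ttr, -0.01 for Apoa1 and -0.96 for Apob. The part of these markers in the changes of the 10 genes was not tested.

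Vldlr, a receptor that binds very low density lipoprotein and brings it to the lipase or into the cell, was at 1.99, 1.61 and 3.13 CPM in NC 2, 4 and 5. It was at 12.0, 8.62 and 9.71 CPM in HFD 1, 2 and 3, so that the lowest HFD library was far above the highest NC library. The fold change was 4.47, a log2 change of 2.16 (SE 0.36, edgeR adjusted p = 0.00485). Lpl, the lipase that frees fatty acids from circulating lipoproteins, was at 17.0, 17.0 and 11.0 CPM in NC and 19.7, 11.8 and 11.7 CPM in HFD. The Lpl groups overlapped, and the log2 change was -0.06 (SE 0.36, edgeR adjusted p = 0.919).

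The 2 membrane transporters with acyl-CoA synthetase activity differed between NC and HFD by less than the standard error. Slc27a2 (FATP2), the main one in liver of the 2 measured, was at 1418, 1402 and 1610 CPM in NC and 1365, 1891 and 1283 CPM in HFD, a log2 change of 0.03 (SE 0.20, edgeR adjusted p = 0.916). Slc27a4 (FATP4) was at 35.0, 38.3 and 35.3 CPM in NC and 36.5, 42.5 and 37.8 CPM in HFD, a log2 change of 0.10 (SE 0.24, edgeR adjusted p = 0.778). In both the groups overlapped. A p that misses the threshold does not show that the levels were equal.

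Of the 2 binding proteins, 1 passed the test. Fabp2, the form best known from the intestine, was at 35.5, 49.2 and 51.0 CPM in NC 2, 4 and 5 and at 161, 124 and 143 CPM in HFD 1, 2 and 3. All 3 HFD libraries were above 100 CPM and all 3 NC libraries below 60 CPM. The fold change was 3.16, a log2 change of 1.66 (SE 0.23, edgeR adjusted p = 0.00232), and it was called in all 19 alternatives. Fabp1, the main form in hepatocytes, was at 1662, 2071 and 3797 CPM in NC and at 3343, 2680 and 3455 CPM in HFD. The highest Fabp1 library was NC 5, the groups overlapped, and the log2 change was 0.33 (SE 0.39, edgeR adjusted p = 0.561). Of 12 enterocyte and pancreas genes, the summed level was 24.9 to 51.3 CPM in NC and 204 to 391.7 CPM in HFD, nearly all of it Apoa4, an apolipoprotein made in intestine and liver, which rose by 2.93 on the log2 scale (SE 0.59, edgeR adjusted p = 0.0109). The intestinal genes Sis, Alpi and Lct of that list were at most 0.0445 CPM and Vil1 at most 0.342 CPM in any library. The part of other tissue in the Fabp2 result was not tested.

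Mogat1, which joins a fatty acid to monoacylglycerol, had the largest change of the 10. It was at 0.149, 0.348 and 0.670 CPM in NC 2, 4 and 5, from 8, 16 and 51 counts, and at 4.50, 5.96 and 4.71 CPM in HFD 1, 2 and 3, from 231, 268 and 329 counts. No HFD library came near an NC library. The fold change was 12.6, a log2 change of 3.66 (SE 0.53, edgeR adjusted p = 0.00268), called in all 19 alternatives with log2 changes from 3.27 to 4.93; it was 4.35 without NC 5. Mogat1 exons overlap those of BC035947 on the opposite strand, which held at most 39 counts in a library, and whether counting used the strand is not given in the sources used here.

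Dgat2, which adds the last fatty acid to make triglyceride, was at 474, 487 and 477 CPM in NC and at 612, 627 and 574 CPM in HFD. Each HFD library was above each NC library and the spread within NC was small. The log2 change of 0.33 (SE 0.20) nevertheless did not pass (edgeR adjusted p = 0.243), and none of the 19 alternatives called it.

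Adipocyte markers were looked at because PPARG and its responsive genes mark fat tissue. The summed level of 10 adipocyte genes was 23.1 to 31.4 CPM in NC, 59.2 to 98.2 CPM in HFD, 29.9 to 32.1 CPM in HFD+AE and 39.3 to 48.0 CPM in HFD+RE. Of its 5 tested members 3 rose in HFD, Cfd by 4.63 on the log2 scale (edgeR adjusted p = 0.00451), Cidec by 2.04 (0.00221) and Fabp4 by 0.76 (0.048), and the other 2 did not pass. Cfd, which encodes adipsin, was at 9.77, 45.0 and 5.56 CPM in HFD 1, 2 and 3 and at most 0.854 CPM in NC. Of the members that were not tested, Lep had no count in any library (3 counts would be 0.0394 to 0.0667 CPM), Adipoq was at most 0.0824 CPM, Plin1 at most 0.142 CPM and Retn at most 0.0889 CPM. In HFD 1 and 2, the libraries with the highest sums of this list, Adipoq had no count. Retn had no count in HFD 1, but its highest value of all 12 libraries, 0.0889 CPM, was in HFD 2. The part of fat tissue in the results was not tested.

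**Figure D2:**
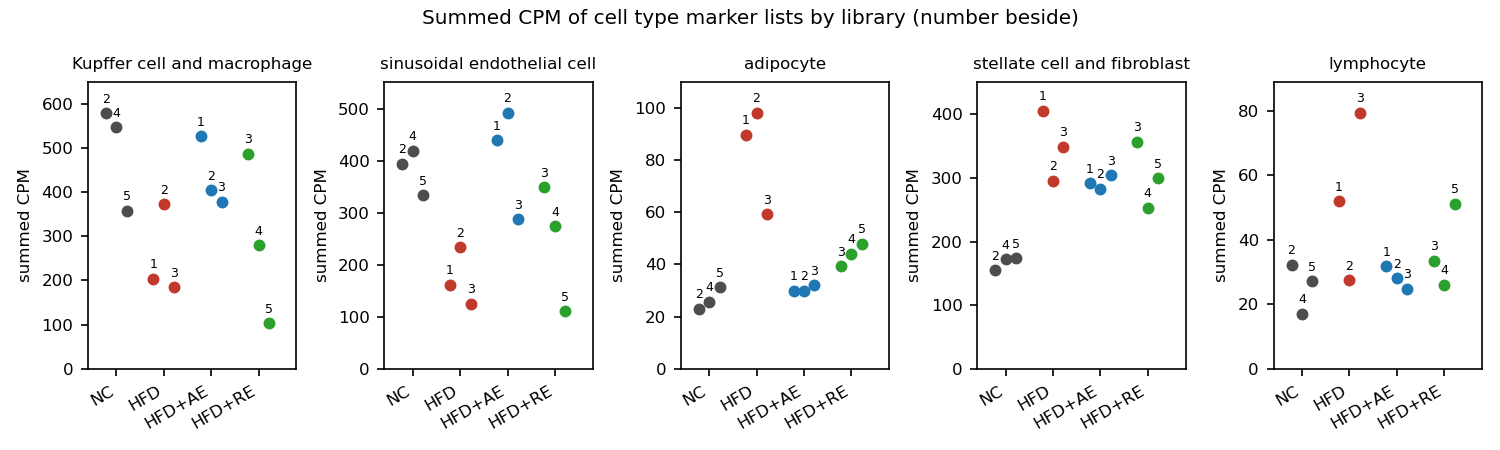
Summed CPM of 5 lists of cell type markers in each library (points, library number above), by group, each axis from 0. The Kupffer cell and endothelial sums are lowest in HFD+RE 5 (103 and 111 CPM), and the adipocyte sums are highest in HFD (59.2 to 98.2 CPM).

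The comparison of HFD+AE with HFD asks what the first kind of exercise does on the high-fat diet. edgeR called none of the 10 genes (3 had an unadjusted p below 0.05), where 0.0492% of all genes were called (0.0164% higher and 0.0328% lower). DESeq2 called 3 of the 10, Dgat2 as higher and Fabp2 and Mogat1 as lower, and 11.2% of all genes it tested. The groups did not overlap for 4 genes, with Dgat2 higher and Fabp1, Fabp2 and Mogat1 lower, against 32% of all genes (15.8% higher and 16.3% lower). The median log2 change of the 10 was -0.11, and that of all genes was 0.00352. Without HFD+AE 3 and HFD+RE 3, 2 of the 10 were called, beside 22.5% of all genes. Leaving out HFD 2 alone, edgeR called 8.93% of all genes.

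Fabp2 was at 62.5, 75.8 and 56.7 CPM in HFD+AE 1, 2 and 3, below each HFD library (124 to 161 CPM) and above each NC library (at most 51.0 CPM). The log2 difference from HFD was -1.14 (SE 0.23, edgeR adjusted p = 0.0574). It passed in 7 of 19 alternatives (0.0008 to 0.251), at 0.00653 without HFD+AE 3 and HFD+RE 3, and at 0.025, 0.0156 and 0.0488 without HFD 2, HFD+RE 3 or HFD+RE 5. Mogat1 was at 1.51, 1.03 and 2.12 CPM in HFD+AE, also between the 2 other groups without overlap. Its log2 difference from HFD was -1.70 (SE 0.47, edgeR adjusted p = 0.0704), which passed in 5 of 19 alternatives (0.00704 to 0.289), at 0.0139 without HFD+AE 3 and HFD+RE 3.

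Dgat2 was higher still in HFD+AE, at 776, 830 and 1123 CPM in libraries 1, 2 and 3. The lowest of them was above the highest HFD library. The log2 difference from HFD was 0.59 (SE 0.20, edgeR adjusted p = 0.0973), and DESeq2's adjusted p was 0.037, within 0.037 to 0.331 over the alternatives; without HFD+AE 3 and HFD+RE 3 the difference was 0.42. Fabp1 was at 1736, 1929 and 2659 CPM in HFD+AE, with a log2 difference of -0.58 (SE 0.39, edgeR adjusted p = 0.353).

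Marker sums also differed between HFD+AE and HFD. The hepatocyte sum, most of it Alb, was 108300 to 114700 CPM in HFD+AE and 59010 to 86430 CPM in HFD. The endothelial sum was 288 to 493 CPM in HFD+AE against 126 to 234 CPM in HFD. The lymphocyte sums overlapped, at 24.8 to 31.8 CPM in HFD+AE and 27.5 to 79.4 CPM in HFD. No gene of these 3 lists passed in edgeR, while 4 of 9 hepatocyte, 10 of 12 endothelial and 11 of 13 lymphocyte genes had an unadjusted p below 0.05, and DESeq2 called 3, 7 and 9 of them. The Kupffer cell and macrophage sum was 378 to 526 CPM in HFD+AE and 185 to 372 CPM in HFD. For lipid-associated and recruited macrophages it was 31.9 to 42.8 CPM in HFD+AE and 44.2 to 82.2 CPM in HFD. In edgeR no gene of either macrophage list passed, and 2 of 13 and 3 of 9 had an unadjusted p below 0.05. The part of these markers in the values of the 10 genes, Cd36 among them, was not tested.

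Pparg, Cd36 and Vldlr in HFD+AE stood near HFD. Pparg was at 13.1, 12.2 and 13.0 CPM, inside the HFD range, with a log2 difference of -0.14 (SE 0.21, edgeR adjusted p = 0.69). Cd36 was at 132, 140 and 108 CPM, also inside the HFD range, with a log2 difference of -0.09 (SE 0.39, edgeR adjusted p = 0.903). Vldlr was at 7.76, 12.0 and 12.7 CPM, with a log2 difference of 0.10 (SE 0.34, edgeR adjusted p = 0.874). Lpl (14.1, 9.57 and 10.9 CPM), Slc27a2 (1923, 1647 and 1936 CPM) and Slc27a4 (37.8, 37.0 and 67.2 CPM) overlapped with HFD, and HFD+AE 3 held the high Slc27a4 value. Without HFD+AE 3 and HFD+RE 3 the log2 differences from HFD were -0.14 for Pparg, 0.02 for Cd36 and -0.02 for Vldlr. Whether a difference in HFD+AE for Mogat1 or Fabp2 exceeded that for Pparg or Cd36 was not tested.

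The comparison of HFD+RE with HFD asks the same of the second kind of exercise, against the same HFD libraries. edgeR called none of the 10 genes (3 had an unadjusted p below 0.05), where 0.0109% of all genes were called (0.00546% in each direction), and DESeq2 called Mogat1 as lower, with 0.935% of all genes it tested. The groups did not overlap for 3 genes, with Dgat2 higher and Fabp2 and Mogat1 lower, against 14.1% of all genes (7.15% higher and 6.99% lower). The median log2 change of the 10 was -0.41, and that of all genes was 0.04.

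Mogat1 was at 0.643, 2.03 and 1.30 CPM in HFD+RE 3, 4 and 5. All were below HFD, and HFD+RE 3 was within the NC range. The log2 difference from HFD was -1.93 (SE 0.48, edgeR adjusted p = 0.282), with 2 of 19 alternatives passing (0.00978 to 0.829), and -1.59 without HFD+AE 3 and HFD+RE 3. Fabp2 was at 74.5, 122 and 124 CPM, with HFD+RE 3 far below HFD and the other 2 just below HFD 2 (124 CPM), and its log2 difference was -0.42 (SE 0.23, edgeR adjusted p = 0.616). Dgat2 was at 637, 898 and 728 CPM, with a log2 difference of 0.32 (SE 0.20, edgeR adjusted p = 0.669). Without HFD+AE 3 and HFD+RE 3 the differences were -0.21 for Fabp2 and 0.43 for Dgat2.

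Cd36 was at 84.0, 92.4 and 27.0 CPM in HFD+RE 3, 4 and 5. HFD+RE 5 was the lowest of all 12 libraries, while HFD+RE 4 was above the lowest HFD library. The log2 difference from HFD was -0.99 (SE 0.39, edgeR adjusted p = 0.48). It was -1.17 when HFD+AE 3 and HFD+RE 3 were left out. HFD+RE 5 also had the lowest Kupffer cell sum (103 CPM, against up to 487 CPM in its group) and the lowest endothelial sum (111 CPM, against up to 350 CPM), and their part in the Cd36 value was not tested.

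Vldlr was at 5.05, 8.77 and 3.23 CPM in HFD+RE, with HFD+RE 5 again the lowest of its group and close to NC 5. Its log2 difference from HFD was -0.83 (SE 0.35, edgeR adjusted p = 0.511). Pparg was at 9.04, 12.5 and 10.7 CPM, with a log2 difference of -0.39 (SE 0.21, edgeR adjusted p = 0.609). Lpl was at 17.9, 8.03 and 5.96 CPM, high in HFD+RE 3 only, with a log2 difference of -0.44 (SE 0.36, edgeR adjusted p = 0.748). Without HFD+AE 3 and HFD+RE 3 the differences were -0.74 for Vldlr, -0.28 for Pparg and -1.04 for Lpl, and none passed. Fabp1 (1363, 3359 and 4330 CPM), Slc27a2 (1634, 1741 and 1402 CPM) and Slc27a4 (30.8, 50.4 and 44.3 CPM) overlapped with HFD.

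**Figure D3:**
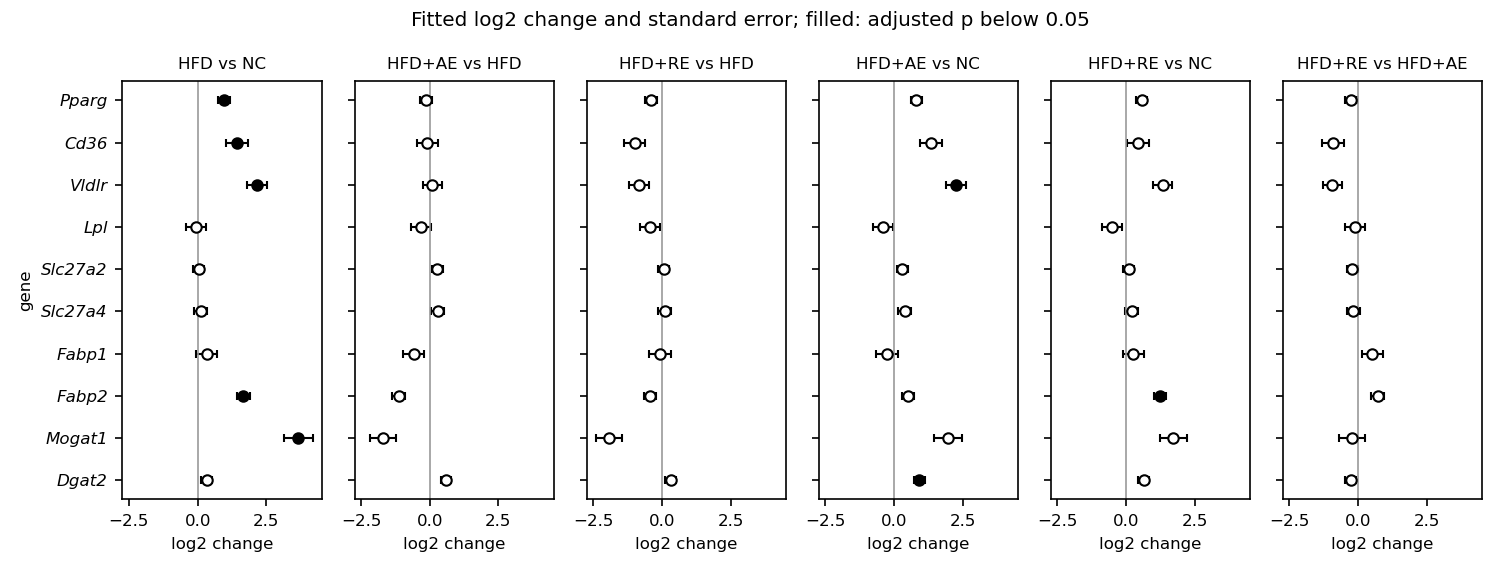
Fitted log2 change (points) and standard error (bars) of the 10 genes in the 6 comparisons; filled points have an adjusted p below 0.05. In HFD vs NC 5 points are filled, in HFD+AE vs NC 2 (Vldlr and Dgat2), in HFD+RE vs NC 1 (Fabp2) and none in the other 3 comparisons.

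The exercise groups were also set against each other and against NC. Between HFD+RE and HFD+AE edgeR called none of the 10 genes (3 had an unadjusted p below 0.05) and 0% of all genes, and DESeq2 called none of the 10 and 0.134% of all genes it tested. Only Cd36 did not overlap, lower in HFD+RE with a log2 difference of -0.90 (SE 0.39, edgeR adjusted p = 0.606), against 11.3% of all genes (5.88% higher and 5.4% lower). Without HFD+AE 3 and HFD+RE 3, Fabp1 (1.07, edgeR adjusted p = 0.0442) and Fabp2 (0.82, adjusted p = 0.0148) were called higher in HFD+RE. In that setting 22.1% of all genes were called, and the libraries left out were picked from these same values. Over 19 alternatives the adjusted p of Fabp1 ran from 0.0442 to 1 and that of Fabp2 from 0.0148 to 1.

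Against NC, 2 of the 10 genes rose in HFD+AE, Vldlr and Dgat2, where 1.38% of all genes were called (0.901% higher and 0.481% lower). DESeq2 called 5, with 4.4% of all genes it tested. Vldlr rose by 2.26 on the log2 scale (SE 0.36, edgeR adjusted p = 0.0119). Leaving out NC 4 (0.0644) or HFD+AE 2 (0.0527) ended this call, and the alternatives ran from 2.73e-07 to 0.193. Dgat2 rose by 0.92 (SE 0.20, edgeR adjusted p = 0.0412). This call did not survive 12 of 19 alternatives, among them leaving out any NC, HFD or HFD+AE library or HFD+RE 5 (0.000447 to 0.365 over all). Without both HFD+AE 3 and HFD+RE 3, Vldlr was at 2.13 and Dgat2 at 0.75, and both passed (adjusted p = 0.0325 and 0.04). The groups did not overlap for 7 of the 10 genes, all higher, against 21.8% of all genes (12.1% higher and 9.74% lower); Mogat1 was at 1.95 (adjusted p = 0.0843), Cd36 at 1.34 (0.125) and Pparg at 0.82 (0.0784).

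In HFD+RE against NC, 1 of the 10 genes rose, Fabp2, where 3.96% of all genes were called (2.67% higher and 1.28% lower). DESeq2 called 4, with 11.2% of all genes it tested. Fabp2 rose by 1.24 (SE 0.23, edgeR adjusted p = 0.014). It no longer passed when NC 2 (0.0556), NC 4 (0.0556), HFD+RE 4 (0.0594) or HFD+RE 5 (0.0586) was left out, and the alternatives ran from 9.95e-05 to 0.0654. The groups did not overlap for 4 genes, all higher, against 26.1% of all genes (13.7% higher and 12.4% lower). Without HFD+AE 3 and HFD+RE 3, 7 of the 10 genes and 31.7% of all genes were called: Pparg, Vldlr, Slc27a4, Fabp2, Mogat1 and Dgat2 as higher and Lpl as lower (-1.10, adjusted p = 0.0166, against -0.50 and 0.395 with all libraries). The libraries left out were picked from these same values, so the calls without them are descriptions. These groups share the NC and HFD libraries with the comparisons above.

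The genes around the 10 were read from lists of their pathway. On the high-fat diet the list of PPARG-responsive genes had 9 of 18 tested genes rise and none fall, with 12 at an unadjusted p below 0.05 and 9 risen and none fallen in DESeq2, and a median log2 change of 0.70 against 0.01 for all genes. Of all genes tested, 8.38% were called as higher. The list includes 4 of the 10 genes: Lpl, which did not pass, and Cd36, Mogat1 and Vldlr. The latter are among the 9 that rose, so the count and the median in part repeat results given above. The part of PPARG or of any other receptor in these changes was not tested. Cidea and Cidec, both lipid droplet proteins, rose by 5.84 (SE 0.82, edgeR adjusted p = 0.00241) and 2.04 (SE 0.28, adjusted p = 0.00221), and Fgf21, a hormone of the liver, by 2.23 (SE 0.49, adjusted p = 0.015). In HFD+AE 1 of 18 fell, Cidec (-2.22 against HFD, SE 0.28, edgeR adjusted p = 0.0222). There 5 of the 18 had an unadjusted p below 0.05, and DESeq2 called 3 as lower. Cidec did not pass when NC 4, HFD 1, HFD+AE 1 or HFD+AE 2 was left out (5.14e-10 to 0.176 over 19 alternatives). Against HFD, none of the 18 was called in HFD+RE (6 had an unadjusted p below 0.05, and DESeq2 called 4 as lower).

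Partners of PPARG were divided. Of 18 receptors, RXRs and coregulators, 3 rose and 4 fell in HFD, with a median of -0.17. Rxrg, an RXR, rose by 1.71 (SE 0.32, edgeR adjusted p = 0.00843), from 2.50 ± 0.200 to 8.15 ± 1.04 CPM. The coactivators Ncoa3 and Ncoa2 fell by 1.05 (SE 0.23, edgeR adjusted p = 0.014) and 0.81 (SE 0.25, adjusted p = 0.0431).

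Of 16 further genes of glycerolipid and triglyceride synthesis, 4 rose and 1 fell in HFD, with a median of 0.05. Gpat3 and Gpat2, acyltransferases of the first step, rose by 2.24 (SE 0.55, edgeR adjusted p = 0.0215) and 1.37 (SE 0.33, adjusted p = 0.0208), while the phosphatidate phosphatase Lpin1 fell by 1.77 (SE 0.42, adjusted p = 0.0188). Of the acyl-CoA synthetases, none of 6 rose and 2 fell, Acsl4 by 1.49 (SE 0.42, edgeR adjusted p = 0.0329) and Acsl5 by 0.66 (SE 0.18, adjusted p = 0.0289); DESeq2 also gave 0 risen and 2 fallen, with 2 at an unadjusted p below 0.05 in edgeR.

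Of 14 other transporters and binding proteins, 1 rose and 3 fell in HFD, with a median of -0.48. Fabp5 fell by 3.04 (SE 0.76, edgeR adjusted p = 0.0237), Slco2a1, known as a prostaglandin transporter, by 1.80 (SE 0.23, adjusted p = 0.00133) and Cav2, a caveolin, by 1.36 (SE 0.42, adjusted p = 0.0466). Of 15 genes in a list on lipoprotein lipase regulation, which also holds other lipases, 1 rose and 1 fell. Angptl8, a secreted inhibitor of the lipase, rose by 1.63 (SE 0.42, edgeR adjusted p = 0.0252). Lipc, the hepatic lipase and thus a separate lipase, fell by 0.84 (SE 0.19, adjusted p = 0.0168). Of 10 lipoprotein remnant receptors and their regulators, none rose and 2 fell, Mylip, which marks lipoprotein receptors for breakdown, by 1.09 (SE 0.31, adjusted p = 0.0363) and Lsr by 1.45 (SE 0.46, adjusted p = 0.0486); 5 had an unadjusted p below 0.05 and DESeq2 called 4 as lower. In these 6 lists edgeR called no gene in HFD+AE or HFD+RE against HFD, with 2 to 6 genes a list at an unadjusted p below 0.05 in HFD+AE and 0 to 2 in HFD+RE. DESeq2 called none in HFD+RE. In HFD+AE it called as higher 1 gene of the transporter list, 3 of the lipase list, 4 of the remnant receptor list and 4 PPAR partners.

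**Figure D4:**
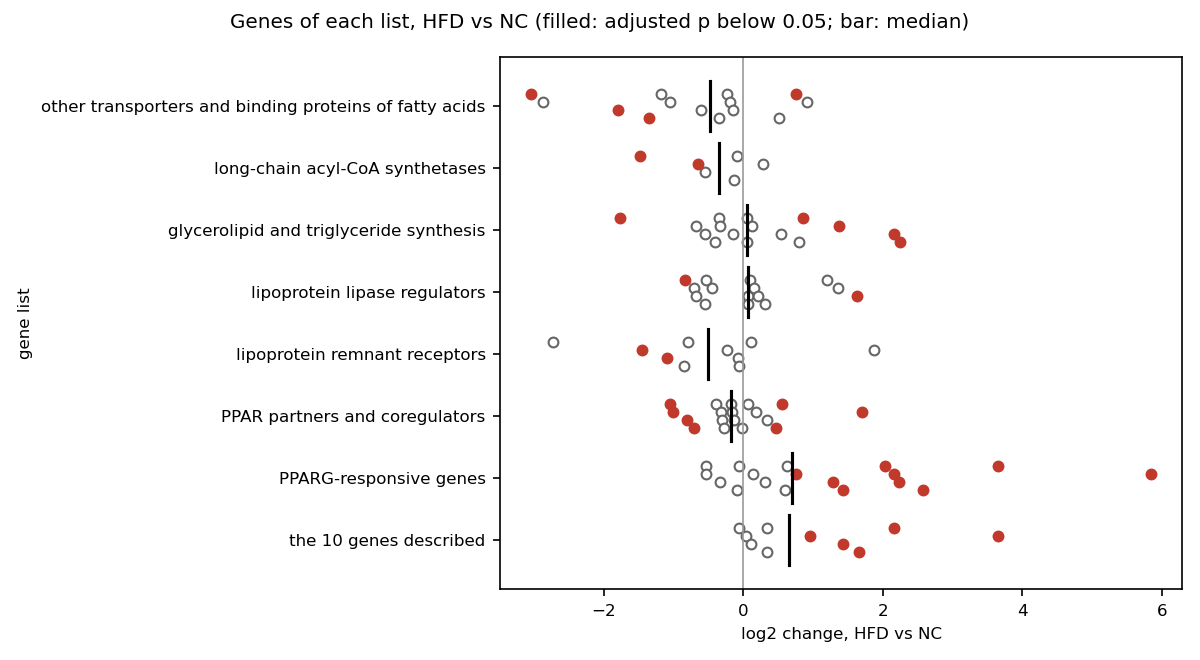
Log2 change in HFD against NC of each tested gene (points) in 7 pathway lists and the 10 genes described, with the median of each list (black bar); filled points have an adjusted p below 0.05. In the PPARG-responsive list 9 of 18 points are filled, all to the right of 0. Cd36, Mogat1, Vldlr and Lpl stand both in that list and among the 10 genes. The medians run from -0.51 for remnant receptors to 0.70.

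Of the 18 pathway genes named for HFD against NC, Cidea, Cidec, Rxrg and Slco2a1 were called in all 19 alternatives, and the other 14 lost their call in 4 to 12 of them. Leaving out HFD 1 ended all 14 calls, and so did leaving out HFD 3. Dropping NC 2 ended 12 calls, NC 4 ended 11 and NC 5 ended 5. Single libraries moved 5 of the log2 changes by over 1.5 times in fold: Fabp5 was at -2.17 without NC 2, which held 37.5 CPM against 10.9 and 10.4 CPM in NC 4 and 5. Without NC 5, Gpat3 was at 3.49 and Cidea at 6.52. Angptl8 was at 0.97 without HFD 3, and Lsr at -2.16 without HFD 2. The lists were chosen with earlier results of these data known, and their counts are descriptions.

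The genes most like Pparg, Cd36 and Mogat1 over the 12 libraries were found by Pearson's r of log2 CPM, as a description. For Pparg they were Them7 (r = 0.92), Gypc, Cryz, Nat1 and Corin (r = 0.90). For Cd36 they were Kifap3 (r = 0.93), Slc22a26, Ildr2, Fermt1 and Rcan2 (r = 0.87). For Mogat1 they were Stk39 (r = 0.99), Clstn3, Sybu, Tpm2 and Lgals1 (r = 0.94). The libraries of a group share diet and exercise, so these values hold the group differences.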

How the data were processed

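Liver RNA of 12 samples was sequenced with a kit that the labels name as ABclonal Fast RNA-seq Lib Prep Kit V2. The authors counted reads per gene with featureCounts 2.0.6, per the file headers, and deposited raw counts with gene positions and lengths. The submitters' processing notes name fastp, HISAT2 2.2.1, DESeq2 1.40.1 and mm10. The annotation release, strand setting and treatment of reads matching several places were not given in these sources. Among counts of 1 to 10, 68% to 78.5% were even in each library, so both mates of a pair may have been counted.

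Counts were tested with edgeR 4.0.16 (quasi-likelihood F-test, robust, TMM scaling, filterByExpr, 4 group means over 12 libraries; R 4.3.3), with Benjamini-Hochberg adjustment over 18305 genes in each of 6 comparisons. SE is the log2 change over the root of F, and CPM are TMM-scaled. The test was also run on simulated counts with the same relative spread set for each gene. That run does not show how the test behaves on these libraries. DESeq2 1.42.0 was an alternative. No 2 libraries agreed within sampling noise.

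The 10 genes and the lists were chosen with earlier results of these data known. Pathway genes were named by a rule: up to 3 called genes of smallest p per list in the comparisons HFD with NC and exercise with HFD. The genes most like Pparg, Cd36 and Mogat1 are the 5 with the highest r each.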

Additional observations from a re-analysis of the deposited data

How the results depend on the processing

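No alternative reversed a called change, and Mogat1 and Fabp2 in HFD vs NC were called in all 19. Numbers of the 10 genes called moved as follows. With the replicate block they were 2 in HFD vs NC (5 without it), 0 in HFD+AE vs NC (2) and 0 in HFD+RE vs NC (1). The same-numbered samples share only a number: over 9 same-number pairs the correlations of deviations ran from -0.497 to 0.161, with 2 over 0.1, so the numbers were not used to pair samples. With no low-count filter the numbers were 4 in HFD vs NC (Cd36 was not called), 2 in HFD+AE vs HFD, 1 in HFD+RE vs HFD and 3 in HFD+RE vs NC. DESeq2 gave 3 in HFD+AE vs HFD, 1 in HFD+RE vs HFD, 4 in HFD+RE vs NC and 5 in HFD+AE vs NC. Fits of the 2 groups alone gave 2 in HFD+AE vs HFD, 1 in HFD+AE vs NC and 0 in HFD+RE vs NC, and removing length trends gave 2 in HFD+RE vs NC. Without both HFD+AE 3 and HFD+RE 3 they were 2 in HFD+AE vs HFD, 2 in HFD+RE vs HFD+AE and 7 in HFD+RE vs NC, where 22.5%, 22.1% and 31.7% of all genes were called. Leaving out each library in turn gave 3 to 5 in HFD vs NC, 0 to 2 in HFD+AE vs HFD, 0 in HFD+RE vs HFD and in HFD+RE vs HFD+AE, 0 to 3 in HFD+AE vs NC and 0 to 6 in HFD+RE vs NC, the 6 being without HFD+RE 3. The cause was not tested. Over all genes, the share called in HFD vs NC was 15.6%, and 1.78% with the block. It was 2.21% without HFD 3, 2.6% without HFD 1, 18.8% without HFD 2 and 33.1% without both HFD+AE 3 and HFD+RE 3. Counts that may hold both mates of a pair make counting noise larger than the counts imply, which weighs most on Mogat1 in NC (8 to 51 counts).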

Other observations

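Apoa4, which rose on the high-fat diet, varied widely within both exercise groups. In HFD+AE it was at 74.8, 109 and 383 CPM in libraries 1, 2 and 3, with the highest value in the library that stood apart from its group. In HFD+RE it was at 119, 305 and 361 CPM in libraries 3, 4 and 5, with the lowest value in the library that stood apart. Apoa4 was named after its values were seen.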
